A study of Homo sapiens with 5 samples.

Results

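The region described here is a 16 Mb window of the long arm of chromosome 18, from 51 to 67 Mb on the human build hg19, studied in U2932, an established line of human lymphoma cells that received no treatment. Its members are all peaks with a midpoint in the window: 31506 of the 1150695 peaks in 6 lists. Chromatin immunoprecipitation and sequencing (ChIP-seq) gave 1 library each with antibody 1 and antibody 2, both non-commercial rabbit polyclonal antibodies to PRDM11, and 1 with an RNA polymerase II antibody. Peaks of each were called once against input, a library made without antibody, and once against a rabbit IgG precipitate, and the series holds 1 library of each control. The lists called against input ("input lists") held 9871 antibody 1, 11203 antibody 2 and 8804 RNA polymerase II peaks of the window, and the lists called against IgG ("IgG lists") held 100, 968 and 560. There is 1 library per antibody, so no value has an error between replicates and no test between conditions was possible; the intervals given with shares are exact (Clopper-Pearson) 95% binomial intervals, which cover counting error only and take each peak as a separate draw. The lists give positions without reads, scores or depth. The window was chosen by its peak counts, which are crowded for antibody 1 against input, few against IgG and near 0 beyond about 62 Mb, so these counts are a description.

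Peak calling asks where an immunoprecipitated library has more reads than its control library over the same bases, so 1 ChIP library can give different peaks against different controls. PRDM11 belongs to the PR domain family, whose members act mainly as transcriptional regulators, and RNA polymerase II, which makes messenger RNA, is typically enriched at active promoters and along highly transcribed genes. Band 18q21 is well known in B-cell lymphoma because it carries BCL2, an inhibitor of apoptosis, and MALT1, a protease of B-cell receptor signalling; extra copies of 18q21 have been described in U2932. Copy number was not measured here and its part in the results was not tested. In the RefSeq annotation of another build (GRCh38.p14) the gene order along this arm includes TCF4 (a transcription factor of B cells), MALT1, PMAIP1 (a pro-apoptotic BCL2 family member), BCL2, KDSR (a sphingolipid enzyme) and the SERPINB protease inhibitor cluster. Between TCF4 and SERPINB8, the last SERPINB gene, that annotation lists 40 protein-coding genes. It lists only 3 between SERPINB8 and TMX3, namely the cadherins CDH7 and CDH19 and the epimerase-like gene DSEL. Peaks were not assigned to genes, because the annotation at hand is on the other build.

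The window consisted of a dense part, with sharp borders and a stepped interior, and a near-empty stretch directly beyond it. The dense part was taken as the 100-kb bins with at least 20 antibody 1 input-list peaks, and formed 2 runs on chromosome 18, from 51716778 to 53481088 and from 53700127 to 61487858, which together spanned 9.55 Mb. The lowest bin above this limit held 43 antibody 1 peaks. The 1 bin below it inside a run, from 52100001 to 52200000, held 0, and the 2 bins of the break between the runs held 1 and 16. In the input lists the dense part held 103.1 antibody 1, 115.3 antibody 2 and 91.8 RNA polymerase II peaks per 100 kb. In the IgG lists it held 1.04, 8.27 and 5.82 per 100 kb. The place of antibody 2 in this order rested on narrow peaks: counting peaks of 200 bp or wider, the input lists held 73.1 antibody 1, 30.4 antibody 2 and 68.3 RNA polymerase II peaks per 100 kb, and the IgG lists 0.513, 1.01 and 3.60. The 9.55 Mb are 0.324% of the length spanned by peaks on chromosomes 1 to 22 and X, yet they held 18.2% of all antibody 1, 2.26% of all antibody 2 and 10.9% of all RNA polymerase II input-list peaks. Relative to the rest of each input list (all chromosomes without the dense part and the near-empty stretch), peak density was 68.4-fold higher in the antibody 1 list, 7.10-fold higher in the antibody 2 list and 37.6-fold higher in the RNA polymerase II list.

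**Figure D1:**
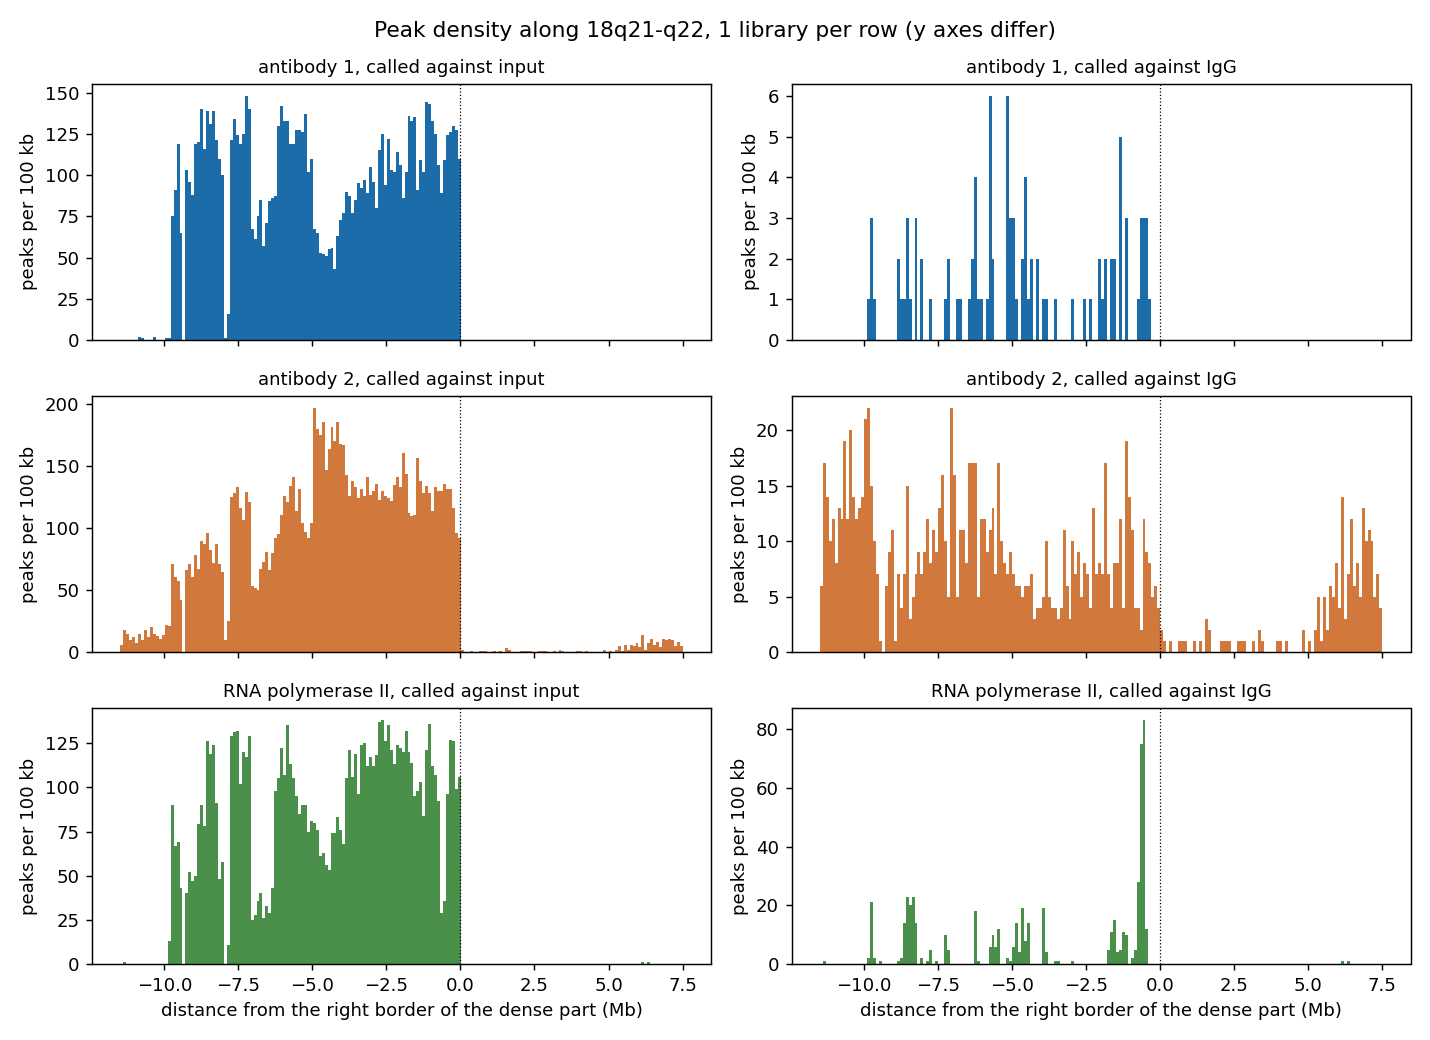
Peaks per 100-kb bin (y axis, scale differs between panels) against the distance from the right border of the dense part in Mb (x axis), for each library called against input (left) and against IgG (right). The input lists fall to nothing at distance 0, reaching up to 197 peaks per bin to the left of it, and only antibody 2 keeps scattered peaks directly to the right.

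The contrast between the controls was also counted bin by bin. Of the 160 bins of 100 kb in the window, 96 had at least 5 times as many input-list as IgG-list peaks plus 1 for antibody 1, against 2.59% of all bins on chromosomes 1 to 22 and X. For antibody 2 the count was 90 bins, against 0.474% of all bins, and for RNA polymerase II 89 bins, against 0.952%. All of these bins lay in the dense part, which spans 98 bins with the break included. The antibody 1 counts belong to the choice of the window, and the other libraries share its controls, so nothing is read from these counts. The window held 12.2% of all such antibody 1 bins, 62.5% of the antibody 2 bins and 30.8% of the RNA polymerase II bins. Within the dense part, 9850 input-list peaks stood against 99 IgG-list peaks for antibody 1, a ratio of 99.5, while in the rest of the lists the ratio was 3.30. For antibody 2 the ratios were 13.9 in the dense part and 1.02 in the rest, and for RNA polymerase II 15.8 and 1.44.

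The left border lay at nearly the same place in the 3 input lists. The last bin before it, from 51600001 to 51700000, held 1 antibody 1, 21 antibody 2 and 13 RNA polymerase II input-list peaks, and the next bin held 75, 71 and 90. Antibody 1 had a lone peak at 51694012 to 51694134 and its next at 51716778, with close spacing from 51729095 on. RNA polymerase II peaks began earlier, at 51668545, and the window's flank before it (51000000 to 51668544) held no RNA polymerase II peak against either control. Antibody 2 was the only library with many peaks on that flank, at 16.3 per 100 kb against input and 16.3 against IgG. The best single step in the share of bases covered by input-list peaks, found in windows of 1 kb, lay at 51729000 (antibody 1), 51730000 (antibody 2) and 51693000 (RNA polymerase II), a range of 37 kb.

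The right border was sharper still. The last input-list peak of antibody 2 ended at 61486151, that of antibody 1 at 61487858 and that of RNA polymerase II at 61488251. The step in covered share lay at 61482000 for antibody 1 and RNA polymerase II and at 61478000 for antibody 2. Over the fitted stretch left of this step 67.9% of bases were covered by antibody 1, 22.3% by antibody 2 and 64.6% by RNA polymerase II input-list peaks, and right of it 0.153%, 0.108% and 0.115%. In the IgG lists, peaks of antibody 1 and RNA polymerase II ended earlier than in the input lists, at 61132565 and 61090520, and those of antibody 2 ended at 61452495.

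Inside the dense part the covered share changed in steps. Single steps fitted to each of the 3 input lists at 4 places lay within 64 kb of each other at 3 of them. The lists share the same input library and the same search ranges, so their borders, steps and order of segments are not independent. Covered share is given here rather than the number of peaks, because in some stretches few, wide peaks covered most bases. At a step at 54401000 antibody 1 peaks covered 13.8% to the right and 68.3% to the left, and at 54402000 RNA polymerase II peaks covered 5.91% to the right and 57.1% to the left. For antibody 2 this step lay at 54373000, with 8.92% to its right and 21.9% to its left. The share was higher again right of a step at 55311000 (antibody 1), 55287000 (antibody 2) and 55247000 (RNA polymerase II). The next step up was placed at 56489000 for antibody 1 and at 56490000 for antibody 2 and RNA polymerase II, a range of 1 kb. There the covered share of antibody 1 was 86.7% to the right and 53.6% to the left, that of antibody 2 was 37.7% and 19.4%, and that of RNA polymerase II was 83.1% and 48.1%. The end of this highest stretch was less clear: it was placed at 57664000 for antibody 2 and RNA polymerase II, but at 57438000 for antibody 1, whose covered share differed little there (80.4% to the right and 88.4% to the left).

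**Figure D2:**
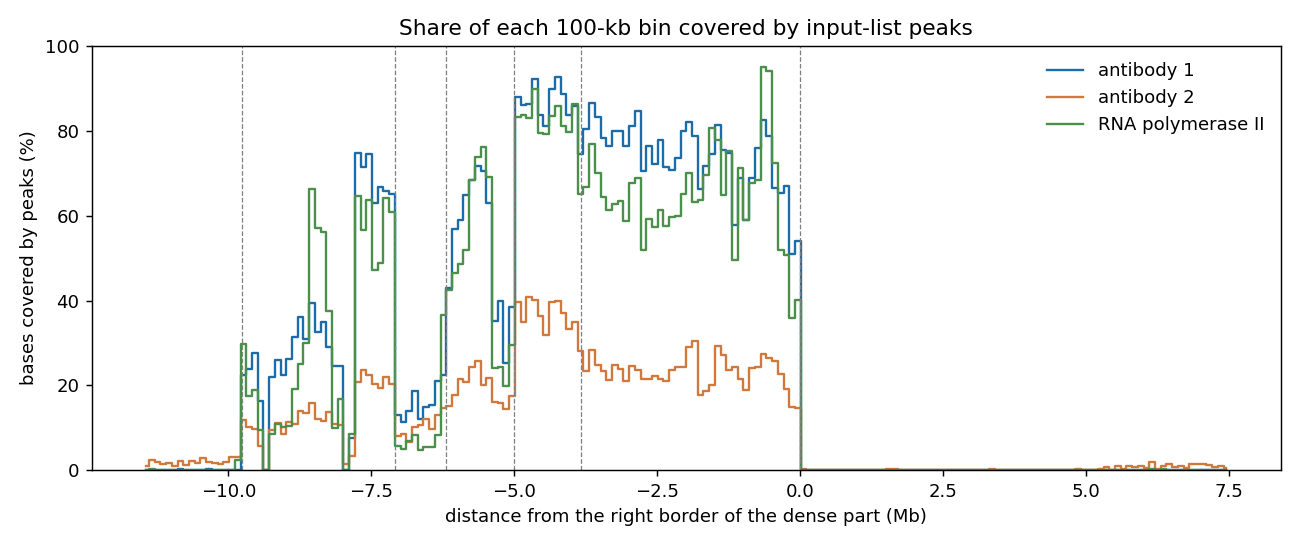
Percent of bases in each 100-kb bin covered by input-list peaks (y axis) of antibody 1, antibody 2 and RNA polymerase II (lines), against the distance from the right border of the dense part in Mb (x axis); dashed lines mark the median position of 6 steps. The 3 lines change near most of the dashed lines, antibody 2 at a lower level, with highest bins of 92.8% (antibody 1), 40.8% (antibody 2) and 95.1% (RNA polymerase II). They also part: in the bin from 52900001 to 53000000 RNA polymerase II reached 66.2%, against 39.4% for antibody 1 and 15.9% for antibody 2.

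The break between the runs and the median positions of the inner steps divide the dense part into 6 segments, called A to F from left to right. The outer borders and the break between segments A and B thus come from the limit on antibody 1 peak counts, not from fitted steps. Segment E (56490000 to 57663999, 1174 kb) was the most fully covered, at 87.0% by antibody 1, 37.0% by antibody 2 and 82.8% by RNA polymerase II. Segment F (57664000 to 61487858) followed at 73.8%, 23.2% and 64.6%, and segment B (53700127 to 54400999) at 68.8%, 21.3% and 58.1%. Segment D (55287000 to 56489999) was covered to 52.6%, 19.1% and 47.5%. It was itself uneven, since in its bins from 56100001 to 56500000 the antibody 1 share was 25.4% to 39.99%, against 87.9% in the next bin. Segment A (51716778 to 53481088) was covered to 26.7%, 10.8% and 24.5%, and segment C (54401000 to 55286999) least, at 15.5%, 10.1% and 9.19%. The order of the 6 segments was thus E, F, B, D, A, C in each input list. Even segment C was far more covered than the rest of each input list, where the shares were 0.343%, 2.26% and 0.849%.

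For antibody 1 and RNA polymerase II, more covered bases did not always mean more peaks. Antibody 1 had its fewest input-list peaks in segment E, 61.2 per 100 kb, against 109.3 in segment F and 130.3 in segment B. RNA polymerase II had 72.3 per 100 kb in segment E, 111.2 in segment F and its fewest, 39.3, in segment C. Antibody 2, with shorter peaks, had its highest density in segment E, at 174.1 per 100 kb, against 128.7 in segment F. Its densities followed the order of covered share, down to 67.3 in segment C. By median width, peaks of segment E were also the widest of the 6 segments in each input list. The median antibody 1 input-list peak was 976 bp wide in segment E, 451.5 bp in segment F, 377 bp in segment B and 172 bp in segment C, against 158 bp in the rest of the list. For RNA polymerase II these medians were 700, 378, 347 and 174 bp, against 231 bp in the rest. For antibody 2 the median stood at the 123 bp minimum of its list in each segment except E, where it was 150 bp.

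**Figure D3:**
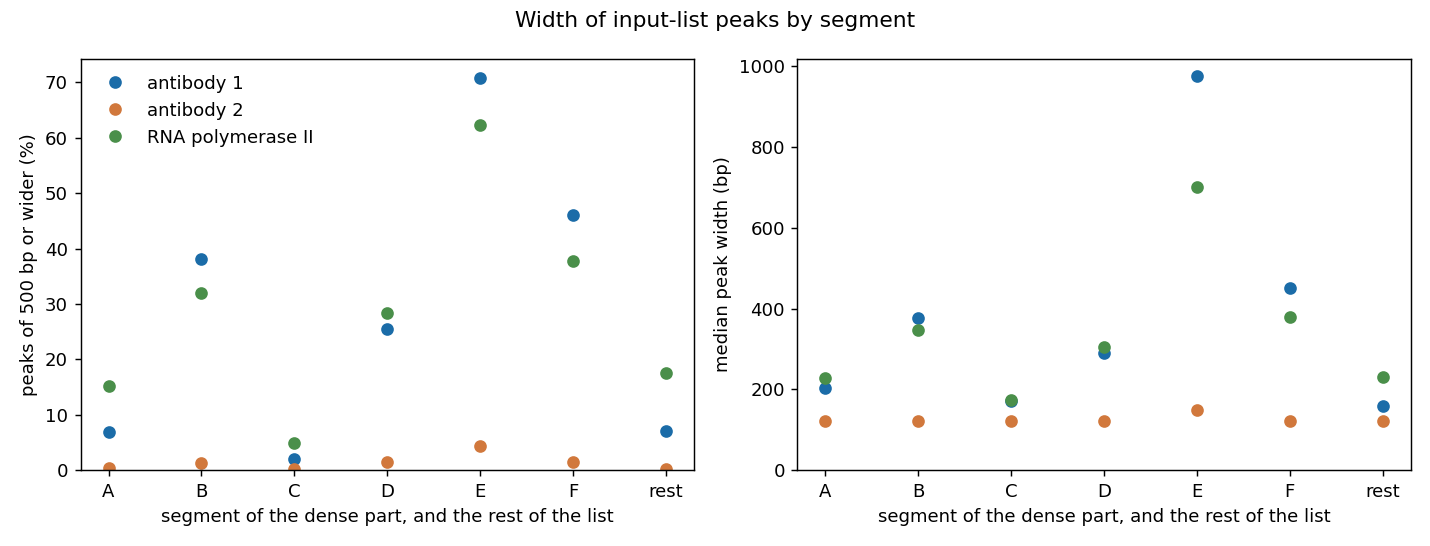
Percent of input-list peaks that were 500 bp or wider (left) and their median width in bp (right), for segments A to F of the dense part and the rest of each list (x axis); points are the 3 libraries. In segment E 70.8% of antibody 1 and 62.3% of RNA polymerase II peaks were 500 bp or wider, against 1.97% and 4.89% in segment C and 7.14% and 17.5% in the rest of the lists.

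The widest peaks against input came from this region for antibody 1. All of its 100 widest input-list peaks lay in the dense part, as did 403 of its 419 peaks of 2000 bp or wider. The widest of them, at 57017922 to 57032194 in segment E, spanned 14273 bp, and the widest antibody 1 input-list peak anywhere else spanned 2851 bp. It overlapped 1 antibody 1 IgG-list peak of 551 bp (57026277 to 57026827) and 25 antibody 2 input-list peaks. For RNA polymerase II, 47 of the 100 widest input-list peaks lay in the dense part, among them the widest of the list at 60817128 to 60831833 (14706 bp, segment F). For antibody 2 the number was 15 of 100. The widest antibody 2 input-list peak of the dense part, at 61033251 to 61035282, spanned 2032 bp, less than the 2425 bp reached elsewhere in that list.

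The dense part was interrupted at 2 places. The first, from 52058904 to 52209148 (150.2 kb, in segment A), held no peak in any of the 6 lists. Whether reads could be mapped to these bases of the build was not tested. Antibody 2 called against IgG, which had 6.91 peaks per 100 kb over segment A, had none from 52057720 to 52245376. The second interruption was the break between the runs, where neither antibody 1 nor RNA polymerase II had a peak against either control from 53511705 to 53661955 (150.3 kb). Unlike in the first interruption, antibody 2 peaks continued through this stretch, with 18 peaks against input and 16 against IgG, or 12.0 and 10.6 per 100 kb. On the left flank both densities were 16.3, and antibody 2 input-list peaks in segment A stood at 69.2 per 100 kb. Elsewhere in the dense part, spacing was tight: the median gap between neighbouring input-list peaks was 193 bp for antibody 1, 409 bp for antibody 2 and 229 bp for RNA polymerase II, and gaps of 20 kb or more numbered 4, 4 and 5, interruptions included.

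Overlap between libraries in the dense part has to be read beside the share of bases that each list covers. Of the 9850 antibody 1 input-list peaks, 77.5% (76.7% to 78.3%) overlapped an RNA polymerase II input-list peak, and 66.3% had their midpoint in one, where RNA polymerase II peaks covered 51.6% of bases. Seen from RNA polymerase II, 92.0% (91.4% to 92.5%) of 8769 peaks overlapped antibody 1, with 83.0% of midpoints inside and 58.3% of bases covered. Of the 11011 antibody 2 input-list peaks, 84.8% (84.1% to 85.4%) overlapped antibody 1, with 75.1% of midpoints inside, and 79.0% (78.2% to 79.8%) overlapped RNA polymerase II, with 69.2% of midpoints inside. With antibody 2, which covered 20.7% of bases, 55.8% (54.8% to 56.8%) of antibody 1 peaks and 60.2% (59.1% to 61.2%) of RNA polymerase II peaks overlapped, with 23.01% and 26.6% of midpoints inside. The midpoint shares exceeded the covered shares by less than 1.5 times for these 6 pairs. In the rest of the input lists, where antibody 1 covered 0.343%, antibody 2 2.26% and RNA polymerase II 0.849% of bases, the overlaps were lower. There 37.7% of antibody 1 peaks overlapped RNA polymerase II and 30.1% overlapped antibody 2. Of RNA polymerase II peaks 21.7% overlapped antibody 1 and 25.8% overlapped antibody 2, and of antibody 2 peaks 3.20% overlapped antibody 1 and 4.60% overlapped RNA polymerase II.

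In the IgG lists, the overlap of antibody 1 elsewhere lay within the intervals of the dense part. Of its 99 IgG-list peaks, 57.6% (47.2% to 67.5%) overlapped an RNA polymerase II IgG-list peak, against 55.1% in the rest of the list, and 41.4% (31.6% to 51.8%) overlapped an antibody 2 peak, against 47.3%. For RNA polymerase II the shares in the dense part lay below those of the rest of the list: 8.63% (6.43% to 11.3%) of 556 overlapped antibody 1, against 14.3%, and 9.35% (7.06% to 12.1%) overlapped antibody 2, against 25.8%. For antibody 2 they lay above: 4.94% (3.53% to 6.69%) of 790 overlapped antibody 1, against 1.59%, and 7.47% (5.73% to 9.53%) overlapped RNA polymerase II, against 3.19%. In the dense part IgG-list peaks covered 0.318% (antibody 1), 1.28% (antibody 2) and 2.34% (RNA polymerase II) of bases. In the rest of the lists RNA polymerase II covered less (0.604%), as did antibody 1, and antibody 2 covered more (2.21%). Both antibody 2 shares and the RNA polymerase II share with antibody 2 differed in the direction of this cover. The RNA polymerase II share with antibody 1 differed in the opposite direction. Whether cover accounts for these differences was not tested. Nearly every IgG-list peak of the dense part was found again against input: 99 of 99 for antibody 1, 556 of 556 for RNA polymerase II and 789 of 790 for antibody 2. In the rest of the lists this share was 81.1%, 89.3% and 93.1%. In the other direction, 0.761% (0.599% to 0.954%) of antibody 1, 3.18% (2.82% to 3.57%) of RNA polymerase II and 7.002% (6.53% to 7.49%) of antibody 2 input-list peaks of the dense part were found against IgG. In the rest of the lists these shares were 23.7%, 58.4% and 91.0%. The window was chosen for many antibody 1 input-list peaks and few IgG-list peaks, so a low antibody 1 share follows from that choice. The other libraries share its controls, and nothing is read from these shares.

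Against IgG, the dense part did not have uniform extra peaks, and the libraries differed. Antibody 1 IgG-list peaks were 2.27-fold denser in the dense part than in the rest of the list (1.04 against 0.457 per 100 kb), and RNA polymerase II peaks 3.44-fold denser (5.82 against 1.69). Antibody 2 peaks were sparser, at 8.27 against 15.9 per 100 kb, a ratio of 0.521. By segment, antibody 2 IgG-list peaks were densest where the input lists covered least, at 13.3 per 100 kb in segment C, and sparsest in the most covered segment E, at 5.71; segments A, B, D and F had 6.91, 10.3, 10.5 and 7.45. RNA polymerase II went the other way in these 2 segments, with 1.81 per 100 kb in segment C and 7.50 in segment E. Antibody 1 had 0.677 per 100 kb in segment C and 1.53 in segment E, with its highest value, 1.83, in segment D. The antibody 2 ratio also differed by peak width. Peaks at the 123 bp minimum had a density of 5.29 per 100 kb in the dense part and 12.4 in the rest, a ratio of 0.425, whereas the 9 peaks of 500 bp or wider had a ratio of 4.05. Such wide peaks made up 1.14% (0.522% to 2.15%) of antibody 2 IgG-list peaks in the dense part and 0.147% in the rest. For antibody 1 the ratio was 0.783 at the minimum width, from 7 dense-part peaks, and 3.23 at 500 bp or wider, from 15. For RNA polymerase II the ratio was 1.64, from 18 peaks, and 3.34, from 102.

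**Figure D4:**
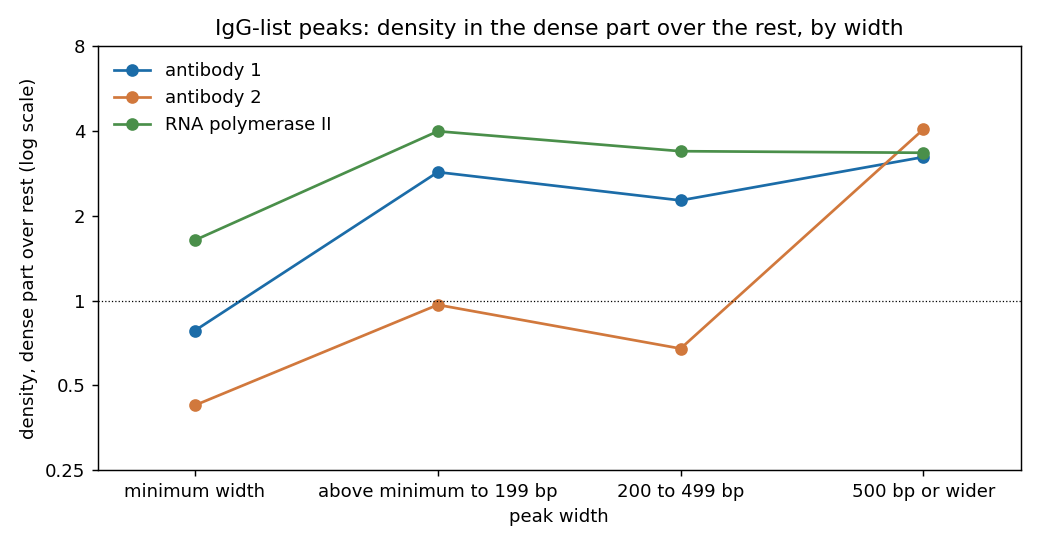
Density of IgG-list peaks in the dense part divided by that in the rest of the list (y axis, log scale) for 4 classes of peak width (x axis); points joined by lines are the 3 libraries, and the dotted line marks a ratio of 1. Antibody 2 lies below 1 except for peaks of 500 bp or wider, where the ratios of the 3 libraries lie between 3.23 and 4.05. The antibody 1 points at the minimum width and at 500 bp or wider rest on 7 and 15 dense-part peaks. The antibody 2 point at 500 bp or wider rests on 9.

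RNA polymerase II IgG-list peaks of the dense part were grouped into clusters by distance. Joining peaks up to 20 kb apart gave 24 clusters of at least 5 peaks, which took up 1.20 Mb (12.5% of the dense part) and held 503 of its 556 RNA polymerase II IgG-list peaks. A high share in little length follows in part from building the clusters from these same peaks. The share was not computed for the rest of the list, so it is not read as particular to this region. The largest cluster, at 60779979 to 61006694 (226.7 kb, segment F), held 186 peaks and was covered by them to 41.5%. Its bins from 60900001 to 61000000 and from 60800001 to 60900000 held 83 and 75 peaks, which ranked 4 and 9 among 30356 bins over chromosomes 1 to 22 and X. This cluster also held the 3 widest RNA polymerase II IgG-list peaks of the dense part, at 60978380 to 60987272 (8893 bp), 60872948 to 60877650 (4703 bp) and 60822184 to 60826689 (4506 bp). Against input the same stretch was covered to 94.7% by 73 RNA polymerase II peaks, fewer than the 186 against IgG. It held 6 antibody 1 and 18 antibody 2 IgG-list peaks.

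The next largest cluster by number of peaks lay at 52882379 to 53257451 (375.1 kb, segment A) and held 94 RNA polymerase II IgG-list peaks, with 7 of antibody 1 and 28 of antibody 2. Smaller but tight clusters lay at 56987980 to 57026911 (22 peaks, with a 3936 bp peak at 56990680 to 56994615), 56806597 to 56834095 (19 peaks), 55253591 to 55297756 (17 peaks) and 51716733 to 51751373 (16 peaks, at the left border). The remaining one of the 5 widest RNA polymerase II peaks, at 57571454 to 57575256 (3803 bp), lay in a cluster of 10 peaks in segment E. Between 57585936 and 59845405, which takes in the left part of segment F, there was no cluster. Of the 99 antibody 1 IgG-list peaks 48.5% (38.3% to 58.7%) lay in these clusters, a density of 4.00 per 100 kb, against 0.611 outside them. Of the 790 antibody 2 IgG-list peaks 14.3% (11.9% to 16.9%) did, close to the 12.5% of length that the clusters take up. For neither antibody was this computed in the rest of the list, so these shares and densities are not read as particular to this region.

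The 10 widest antibody 1 IgG-list peaks of the dense part were spread over segments A (3 peaks), D (2), E (2) and F (3). Each overlapped an antibody 2 IgG-list peak, and 9 of the 10 overlapped an RNA polymerase II IgG-list peak. Overlap of equally wide peaks in the rest of the list was not computed, so these counts are not read as particular to this region. The widest, at 61033139 to 61035274 (2136 bp), was 3044 bp wide against input, and the antibody 2 peak there was 1976 bp wide against IgG and 2032 bp against input. At 51883869 to 51885068 the antibody 1 peak of 1200 bp matched an antibody 2 peak of 1148 bp and an RNA polymerase II peak of 1370 bp. At 60189358 to 60190468 (1111 bp) the antibody 2 peak spanned 1105 bp and the RNA polymerase II peak 798 bp. The 3 peaks just named coincided with the 3 widest antibody 2 IgG-list peaks of the dense part, and the other 2 of its 5 widest, 988 bp and 894 bp, coincided with antibody 1 peaks at 55711675 to 55712584 and 59853568 to 59854365.

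The peak at 56975314 to 56976263 (950 bp, segment E) was the one without an RNA polymerase II IgG-list peak, though an RNA polymerase II peak of 1441 bp was called there against input. In segment A, 2 neighbouring antibody 1 peaks at 52988612 to 52989320 (709 bp) and 52989387 to 52990147 (761 bp) fell into a single input-list peak of 3165 bp. The antibody 1 peak at 56807053 to 56807778 (726 bp, segment E) lay in an input-list peak of 6358 bp. At 55288849 to 55289557 (709 bp), just right of the step between segments C and D, widths against the controls were closer: 1077 bp against input and 709 bp against IgG. At 55711675 the antibody 1 peak was 4062 bp wide against input and 910 bp against IgG, whereas the antibody 2 peak there was 1003 bp and 988 bp wide.

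Beyond the right border, the lists were nearly empty. No antibody 1 peak was called against either control between 61487858 and 70211455, a gap of 8.72 Mb in the input list. RNA polymerase II had no peak from 61488251 to 67695939, a gap of 6.21 Mb in its input list. Antibody 2 peaks returned at 66833486 in both of its lists, the place of the best single change of IgG-list density between the border and 72 Mb. The near-empty stretch from 61488252 to 66833485 (5.35 Mb) therefore held antibody 2 peaks alone, 32 against input and 33 against IgG, or 0.599 and 0.617 per 100 kb. The IgG-list density there was 0.0389 times that in the rest of the list. Of its 53 full bins of 100 kb, 27 held no antibody 2 IgG-list peak, and no bin held more than 3. Long stretches with neither antibody 1 nor RNA polymerase II peaks, against either control, also lay on other chromosomes. Longer than the 6.21 Mb here were stretches on chromosomes 1 (22.4 Mb), 9 (21.1 Mb), 16 (11.8 Mb) and X (8.91 Mb).

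The few antibody 2 peaks of the near-empty stretch were nearly the same against both controls. All 32 input-list peaks were found against IgG, and 32 of 33 IgG-list peaks against input. They were narrow: 84.8% of the IgG-list peaks were at the 123 bp minimum. The widest lay at 63171728 to 63171931 (204 bp), 64856911 to 64857063 (153 bp) and 66313490 to 66313634 (145 bp), each with identical bounds in the input list. Next in width were 61874686 to 61874814 (129 bp) and 63695620 to 63695743 (124 bp). The median gap between neighbouring antibody 2 IgG-list peaks was 132.4 kb, and the longest gap, from 65705019 to 66313489, was 608.5 kb. By the limit of at most 3 peaks of all 6 lists per bin, the longest near-empty run was the shorter stretch from 63196877 to 66717041 (3.52 Mb), because bins near 63 Mb held up to 3 antibody 2 peaks in each of its lists.

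Elsewhere, windows of the same length, moved in steps of 100 kb, held 33 or fewer antibody 2 IgG-list peaks on chromosomes 1, 9 and 16 alone. Those places include gaps in the antibody 2 IgG list of 21.1, 19.2 and 11.1 Mb, and these chromosomes are known for long heterochromatic repeats beside their centromeres. The near-empty stretch of chromosome 18 had no such gap, as the 608.5 kb above was its longest. The limit of 33 came from this stretch, whose borders were fitted to the peaks, while the windows were not fitted. No window on chromosome 18 met the limit either, so how rare such a stretch is cannot be told from this count.

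Right of the near-empty stretch, from 66833486 to the last peak of the chromosome at 78007552, densities were still below those of the rest of each list. Antibody 1 had 0.143 peaks per 100 kb against input and 0.170 against IgG, which is 0.0950 and 0.372 times the density in the rest of the lists. Antibody 2 had 9.70 and 10.7 per 100 kb, or 0.598 and 0.678 times, and RNA polymerase II had 0.707 and 0.841 per 100 kb, or 0.289 and 0.497 times. In each library the IgG list was the longer one here, with 19 antibody 1, 1201 antibody 2 and 94 RNA polymerase II peaks, against 16, 1084 and 79 in the input lists. This order is the opposite of that in the dense part.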

How the data were processed

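ChIP-seq peak lists of 3 libraries (antibody 1, antibody 2 and RNA polymerase II; 1 library each) were used, each called against input and against IgG, 6 lists in all. Per the submitters' processing notes, Bowtie 0.12.7, SAMtools, MACS2 2.0.9 and build hg19 were used, without order or settings; the control and a q cutoff (0.1) are known only from the names of the deposited lists. Each deposited list holds chromosome, start and end, with no score, so depth is unknown. Starts are printed counted from 1. A low threshold or a control with few reads over a region changes the number of peaks, their width and their overlaps.

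The members, settings and segments were chosen with earlier results of these data known. Peaks were assigned to 100-kb bins by midpoint. The dense part, the near-empty run (at most 3 peaks per bin, all lists) and named regions (the 10 widest antibody 1, 5 widest RNA polymerase II and 5 widest antibody 2 IgG-list peaks, the widest input-list peaks, border peaks and, in the near-empty stretch, the 5 widest antibody 2 peaks) followed written rules; for runs, 1 bin past the limit was allowed inside. Overlap required at least 1 bp. Steps are the least-squares single change of the covered share in search ranges set after seeing the profile; segments and covered share were likewise added after seeing the data; the return of antibody 2 peaks is the best single change of a Poisson density. Densities of the rest of a list use the length between the first and last peak of each chromosome, assembly gaps included. The procedure was also run on simulated peaks of equal width, with even density between planted borders and wide tolerances. The real peaks differ in width and spacing, so this run does not show how exact the borders and steps given here are. Python 3.11.15, NumPy 2.4.6, pandas 2.3.3, SciPy 1.17.1 and matplotlib 3.10.9 were used.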

Additional observations from a re-analysis of the deposited data

Results flagged for a closer look

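The 3 libraries did not move the same way against IgG. In the dense part, density relative to the rest of the list was 0.521 for antibody 2, but 2.27 for antibody 1 and 3.44 for RNA polymerase II. With 1 library each, this difference was not tested.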

How the results depend on the processing

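No paired analysis was possible because each antibody has 1 library. Borders were called moved beyond 100 kb, counts and densities beyond a factor of 1.5, and shares beyond their exact interval; of 84 alternatives, 39 stayed within these limits and 45 did not, and midpoint overlap, and the near-empty stretch without antibody 2 or up to the return of its peaks, were chosen after seeing the data. The dense part kept its right border, its left border and its length under bins of 50 and 200 kb, limits of 10 and 40 peaks and the RNA polymerase II list; with antibody 2 the left border was 51005623, where that list held 16.3 peaks per 100 kb on the flank. The near-empty run depended on its limit in each case: it began at 61488252 and ended at 67205615 (5.72 Mb) with at most 6 peaks per bin, began at 65539392 (1.18 Mb) with at most 1, spanned 64919860 to 66313489 (1.39 Mb) with bins of 50 kb and 61560892 to 66833485 with bins of 200 kb. Without the antibody 2 lists it ran from 61488252 to 72163139 (10.7 Mb), and to the return of antibody 2 peaks from 61488252 to 66833485 (5.35 Mb). Limited to peaks of 200 bp or wider, densities per 100 kb in the dense part were 0.513 (antibody 1), 1.01 (antibody 2) and 3.60 (RNA polymerase II) against IgG, and 30.4 for antibody 2 against input. Input-list peaks found against IgG were 0.132% (antibody 1), 4.56% (antibody 2) and 0.707% (RNA polymerase II) with at least 50% of the peak covered, and 0.572% and 3.20% for antibody 1 and antibody 2 with both lists limited to 200 bp; antibody 2 IgG-list peaks so limited were found against input at 98.96%. With at least 50% covered, overlap in the input lists was 15.5% for antibody 1 in antibody 2, 67.5% for antibody 1 in RNA polymerase II, 76.3% for antibody 2 in antibody 1, 70.1% for antibody 2 in RNA polymerase II, 84.97% for RNA polymerase II in antibody 1 and 18.4% for RNA polymerase II in antibody 2; by midpoints the same shares, in this order, were 23.01%, 66.3%, 75.1%, 69.2%, 83.0% and 26.6%, and with any overlap in the IgG lists they were 41.4%, 57.6%, 4.94%, 7.47%, 8.63% and 9.35%. Stricter coverage lowers overlaps and a width limit lowers densities by construction; for all other changes the cause was not tested. The numbers of bins with an excess against input stayed within the factor at multiples of 3 and 10. Read depth is unknown, so how many narrow peaks rest on few reads cannot be told.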
